A study of Mus musculus with 24 samples.

Results

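The 36 genes described here encode enzymes that build serine, move 1-carbon units through folate, and make purine, pyrimidine and deoxynucleotides. They were measured as messenger RNA in CD4+ T cells isolated from mouse spleen. The members were chosen by symbol, and each symbol was matched to an Ensembl identifier in the count table (Ctps is also called Ctps1, and Adss is also called Adss2). All 36 were found among 54446 listed genes, and all 36 passed the filter on low counts that left 15325 genes for testing. Cells came from 3 WT mice (C57BL6, labelled 1, 3 and 4) and from 3 Aim2-/- mice on the same background (labelled 1, 2 and 4). AIM2 is a cytosolic sensor of DNA, and the mice lack it as whole animals, not in their T cells alone. Cells of each mouse were taken unstimulated (0 h) and after 3, 6 or 24 h of culture with antibodies to CD3 and CD28, which stand in for the T cell receptor and costimulation signals, so there were 8 groups of 3 libraries. The mice were matched for age and sex per the study's methods, and neither is given in the sources used here. T cells were enriched by removing other cells with magnetic beads, so some other cells remain. The design asks how the cells respond to stimulation and whether that response or the resting level differs without Aim2.

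Phgdh, Psat1 and Psph make serine from an intermediate of glycolysis. Serine hydroxymethyltransferases and the folate enzymes move a carbon of serine onto folate, from which it enters the purine ring and thymidylate. The purine route builds its ring step by step on a phosphorylated ribose (PRPP), and the pyrimidine route joins a ring already made to PRPP. Ribonucleotide reductase then turns ribonucleotides into the deoxynucleotides used in DNA. T cells that prepare to divide after activation are known to draw on all of these routes.

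Library totals ranged from 19715161 to 21627018 counts, and each member had between 58 and 16675 counts per library. Levels are given as CPM, edgeR's counts relative to library size with TMM factors, with the values of a group in the order of its mouse labels. Changes are log2 fold changes of edgeR's quasi-likelihood fit with their SE, and a gene is described as risen, fallen, higher or lower when its adjusted p was under 0.05 over all genes tested. Aim2 stood at 21.5, 75.0 and 67.5 CPM in the unstimulated WT cells and at 15.7, 20.1 and 19.0 CPM in the unstimulated Aim2-/- cells. At 24 h it stood at 5.57, 34.0 and 38.6 CPM in WT and at 6.55, 7.15 and 5.28 CPM in Aim2-/- cells. Aim2 in the mouse labelled WT 1 was thus near or within the Aim2-/- range at every time, against its label, so the genotype comparisons are given with all mice and without it. The counts do not resolve exons, so the residual Aim2 signal could not be placed in the gene. The CD4 T cell markers (8 genes) summed to 4922 to 5298 CPM in the unstimulated libraries, and the B cell markers to 4.11 to 44.0 CPM.

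Stimulation raised nearly the whole set, and by 24 h all 36 members were called in each genotype. The summed level of the 36 genes in WT cells was 1835, 1841 and 1860.5 CPM at 0 h and 10883, 12105 and 10942 CPM at 24 h, which is 0.174 to 0.179% of all counts at 0 h and 1.04 to 1.12% at 24 h. The sum in Aim2-/- cells was 1835, 1826 and 2004 CPM at 0 h and 8107, 10809 and 9659 CPM at 24 h. The groups at 0 h and 24 h did not overlap in either genotype. Because each library was made from bulk cells, more cells in an activated state and more RNA per cell cannot be told apart.

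In WT cells 18 members rose and 3 fell at 3 h, 27 rose and 2 fell at 6 h, and 34 rose and 2 fell at 24 h. Of all genes tested, 16.2% rose and 16.4% fell at 3 h, 26.4% rose and 24.8% fell at 6 h, and 36.6% rose and 34.8% fell at 24 h. In Aim2-/- cells 19 members rose and 2 fell at 3 h, 27 rose and 2 fell at 6 h, and 34 rose and 2 fell at 24 h, beside 16.1% and 14.6% of all genes at 3 h, 28.5% and 22.7% at 6 h, and 36.8% and 33.5% at 24 h. The median change of the members in WT was 0.37, 1.14 and 3.12 at the 3 times, where the median of all genes was 0.02, 0.02 and -0.01. The Aim2-/- medians were 0.39, 0.91 and 2.52, where the median of all genes was 0.02, 0.08 and 0.03. At 24 h the rise exceeded 1 on the log2 scale in 29 members in each genotype, and the share of all genes past that size was not computed. Counted within mice, 18 members moved up and 4 moved down in all 6 mice at 3 h, 27 up and 3 down at 6 h, and 34 up and 2 down at 24 h. The share of all genes with such agreement was not computed. Agreement may be common, since the 0 h and 24 h groups were apart in 76.6% of all genes in WT and 70.9% in Aim2-/- cells. Without the mouse labelled Aim2-/- 4, the calls in Aim2-/- cells at 3 h numbered 11 in place of 21, beside 18% of all genes in place of 30.7%.

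**Figure D1:**
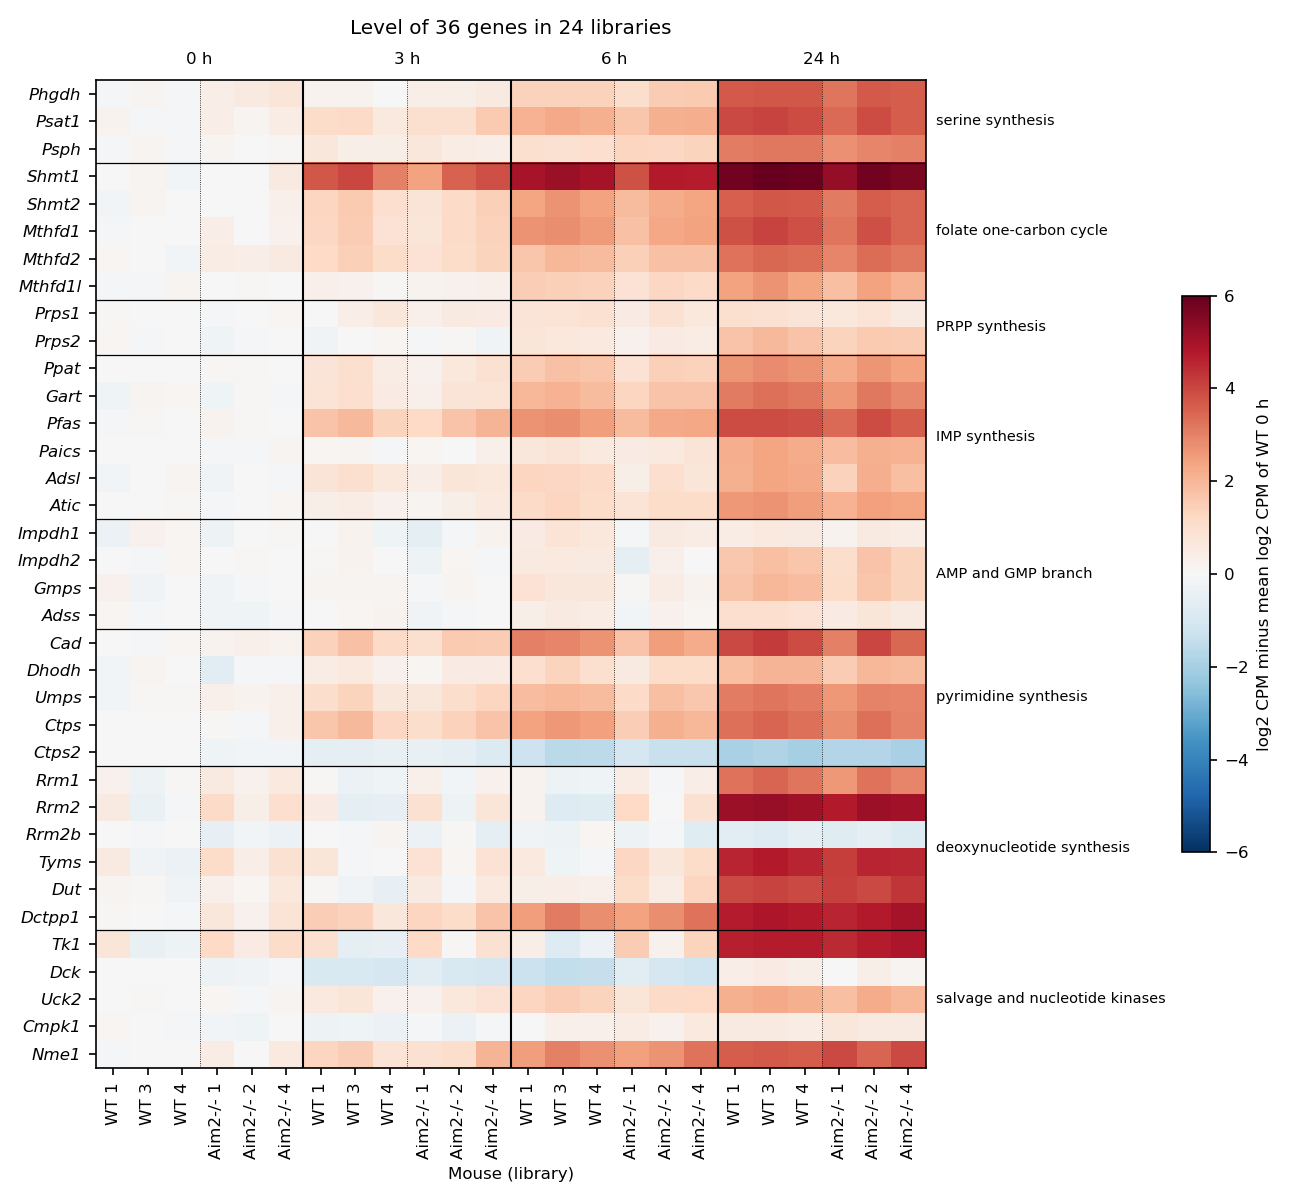
Log2 CPM of the 36 genes (rows, grouped by role) in each of the 24 libraries (columns), minus the mean log2 CPM of the 3 unstimulated WT libraries. Red is above and blue below that mean; most rows turn red by 6 h, Rrm1, Rrm2, Tyms, Dut and Tk1 turn deep red at 24 h, and Ctps2 is blue from 3 h on.

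Where a start site of a gene is annotated, RefSeq gives a window of 300 bases (250 before and 50 after the start, GRCm38.p6). Such a window was found for 33 of the 36 members and held 39 starts, and none was listed for Pfas, Dhodh and Rrm2b. Both strands were searched for the E-box CACGTG, the ATF4 composite element TGATGNAA, the E2F letters TTTGGCGC and TTTCCCGC, and the NF-Y box CCAAT, and a window could hold several of them. CACGTG stood in 15.4% of the members' windows and in 7.15% of all 32851 windows, in Paics, Atic, Impdh2, Tyms and Nme1. TTTCCCGC stood in 5.13% against 1.07% (Prps2 and Ppat), CCAAT in 41.0% against 37.4%, TGATGNAA in 2.56% against 3.97% (Prps1), and TTTGGCGC in 0.0% against 0.514%. These are letters in a window, not measured binding. Paics and Ppat, which take part in the same purine route, are shown because they are neighbours that face away from each other and their annotated 5' ends overlap by 272 bases. Mthfd2 and Rrm2 are shown as an early and a late riser, the former with 3 CCAAT boxes. The windows lie at chr5:76951052-76951351, plus strand (Paics), chr5:76951529-76951828, minus strand (Ppat), chr6:83317555-83317854, minus strand (Mthfd2) and chr12:24708004-24708303, plus strand (Rrm2). Each is written from 5' to 3' on the strand of its gene, and capitals mark the searched letters on either strand.
Paics: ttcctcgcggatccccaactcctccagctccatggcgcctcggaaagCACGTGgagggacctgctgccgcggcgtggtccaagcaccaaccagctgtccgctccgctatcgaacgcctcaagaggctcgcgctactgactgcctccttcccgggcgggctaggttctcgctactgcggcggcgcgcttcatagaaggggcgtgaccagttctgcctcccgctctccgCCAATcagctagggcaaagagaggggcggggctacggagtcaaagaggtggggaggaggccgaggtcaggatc
Ppat: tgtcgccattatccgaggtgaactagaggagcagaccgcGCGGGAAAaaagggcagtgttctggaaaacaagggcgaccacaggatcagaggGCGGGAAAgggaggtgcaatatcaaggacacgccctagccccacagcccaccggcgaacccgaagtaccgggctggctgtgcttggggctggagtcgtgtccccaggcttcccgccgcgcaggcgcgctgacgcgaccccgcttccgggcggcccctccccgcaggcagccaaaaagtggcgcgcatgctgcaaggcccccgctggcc
Mthfd2: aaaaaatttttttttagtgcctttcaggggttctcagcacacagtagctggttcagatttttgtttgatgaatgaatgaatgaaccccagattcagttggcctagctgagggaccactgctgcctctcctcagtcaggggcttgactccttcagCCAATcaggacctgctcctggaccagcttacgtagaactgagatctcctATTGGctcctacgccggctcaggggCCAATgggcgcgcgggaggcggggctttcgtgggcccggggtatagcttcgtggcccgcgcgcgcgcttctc
Rrm2: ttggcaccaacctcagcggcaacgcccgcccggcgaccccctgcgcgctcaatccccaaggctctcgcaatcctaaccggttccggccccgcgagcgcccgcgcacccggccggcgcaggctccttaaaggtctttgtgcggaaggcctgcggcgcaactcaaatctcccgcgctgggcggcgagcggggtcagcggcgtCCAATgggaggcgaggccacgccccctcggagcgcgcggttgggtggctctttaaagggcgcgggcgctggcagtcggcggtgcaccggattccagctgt
In Paics the E-box began at position -203 from the start and CCAAT at -23. The 2 GCGGGAAA runs of Ppat, the reverse complement of TTTCCCGC, began at -211 and -158. The boxes of Mthfd2 began at -96, -47 and -22, and that of Rrm2 at -50.

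Serine synthesis rose as a whole, with a small early part and a large late part. All 3 genes had risen by 6 h and at 24 h in both genotypes. Psat1, the aminotransferase of the route, had the largest 24 h change of the 3. It stood at 37.2, 30.0 and 29.6 CPM at 0 h, then 67.8, 71.5 and 47.4 at 3 h, then 135, 156 and 142 at 6 h, then 498, 541 and 479 at 24 h in WT mice. The Aim2-/- mice gave 42.001, 36.5 and 44.3 CPM at 0 h, then 62.3, 62.4 and 93.9 at 3 h, then 102, 141 and 143 at 6 h, then 333, 482 and 392 at 24 h. Every later group lay above the unstimulated one, and the change in WT was 0.95 ± 0.18 at 3 h, 2.16 ± 0.18 at 6 h and 3.97 ± 0.20 at 24 h (15.7-fold).

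Phgdh (ENSMUSG00000053398, chr3:98313170-98339990, minus strand), the dehydrogenase that commits glycolytic carbon to serine, stayed near its resting level at 3 h. In WT mice it was 10.3, 12.4 and 10.4 CPM at 0 h, then 12.9, 12.9 and 10.9 at 3 h, then 29.2, 28.4 and 29.2 at 6 h, then 143, 146 and 147 at 24 h. The Aim2-/- values were 14.6, 15.8 and 17.96 CPM at 0 h, then 14.5, 14.2 and 15.9 at 3 h, then 23.002, 32.1 and 32.9 at 6 h, then 103, 139.9 and 135 at 24 h. The 0 h and 3 h groups overlapped in both genotypes, and the 6 h and 24 h groups lay above them. Its change in WT was 0.14 ± 0.14 at 3 h (adjusted p = 0.461), 1.39 ± 0.13 at 6 h and 3.72 ± 0.14 at 24 h, and -0.12 ± 0.13, 0.86 ± 0.13 and 2.97 ± 0.14 in Aim2-/- cells. Psph, the phosphatase of the last step, was measured in WT at 11.1, 13.3 and 11.1 CPM at 0 h, then 19.1, 15.2 and 15.2 at 3 h, then 22.9, 22.3 and 23.9 at 6 h, then 99.9, 104 and 107 at 24 h. Its Aim2-/- libraries held 13.2, 11.9 and 12.3 CPM at 0 h, then 18.9, 16.1 and 15.4 at 3 h, then 28.8, 27.8 and 29.9 at 6 h, then 79.7, 89.9 and 96.0 at 24 h. In each genotype the stimulated groups lay above the unstimulated one. The change in WT was 0.48 ± 0.11, 0.96 ± 0.11 and 3.13 ± 0.11, and the call at 3 h was lost without the mouse labelled WT 1 (0.32, adjusted p = 0.0796). Psph overlaps Cct6a on the other strand, a gene with a mean of 10000.9 counts per library against 766 for Psph, and since the strand setting of the counting is not given in the sources used here, its level is uncertain.

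Most of the folate enzymes rose early. Of the 5 genes, 4 had risen at 3 h and all 5 at 6 h and 24 h in each genotype, and Mthfd1l was not called at 3 h. Shmt1 (ENSMUSG00000020534, chr11:60788104-60811718, minus strand), the cytosolic serine hydroxymethyltransferase, had the largest rise of all members at each time. In WT mice it stood at 6.25, 6.87 and 5.52 CPM at 0 h, then 80.9, 98.0 and 50.9 at 3 h, then 191, 227 and 198 at 6 h, then 346, 401 and 366 at 24 h. The Aim2-/- mice held 6.24, 6.25 and 9.10 CPM at 0 h, then 32.9, 72.1 and 89.7 at 3 h, then 86.3, 166 and 164 at 6 h, then 237, 344 and 309 at 24 h. Within 3 h every library lay far above the unstimulated range, with the mouse labelled Aim2-/- 1 the lowest. The change in WT was 3.62 ± 0.33 (12.3-fold) at 3 h, 5.04 ± 0.35 at 6 h and 5.90 ± 0.36 (59.6-fold) at 24 h, and in Aim2-/- cells it was 3.17 ± 0.33, 4.27 ± 0.34 and 5.36 ± 0.35. Shmt1 overlaps Smcr8 on the other strand (a mean of 2206 counts against 2977), so part of its counts may belong to that gene.

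Shmt2, the mitochondrial form of the enzyme, rose less. WT mice had 57.6, 73.1 and 63.9 CPM at 0 h, then 156, 193 and 130.4 at 3 h, then 329.6, 421 and 342 at 6 h, then 779.9, 856 and 819.5 at 24 h. Aim2-/- mice had 64.9, 65.0 and 79.1 CPM at 0 h, then 112, 144 and 175 at 3 h, then 237, 305 and 337 at 6 h, then 554, 801 and 731 at 24 h. No stimulated group overlapped its unstimulated one. The change in WT was 1.30 ± 0.18, 2.49 ± 0.18 and 3.66 ± 0.19. Mthfd1 carries the cytosolic reactions that interconvert folate 1-carbon units. Its WT values were 29.0, 31.3 and 31.2 CPM at 0 h, then 72.6, 88.3 and 55.5 at 3 h, then 199, 211 and 179 at 6 h, then 425, 511 and 448 at 24 h. Its Aim2-/- values were 40.7, 31.4 and 36.2 CPM at 0 h, then 51.2, 68.0 and 80.6 at 3 h, then 104, 153 and 162 at 6 h, then 284, 444 and 342 at 24 h. Here too the stimulated groups were apart from the unstimulated ones. It rose by 1.24 ± 0.20, 2.69 ± 0.20 and 3.92 ± 0.21 in WT.

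Mthfd2 (ENSMUSG00000005667, chr6:83305691-83325908, minus strand), a mitochondrial dehydrogenase and cyclohydrolase of the same cycle, was 37.4, 34.8 and 30.4 CPM at 0 h, then 79.0, 91.4 and 74.3 at 3 h, then 107, 135 and 127 at 6 h, then 326, 371 and 342 at 24 h in WT mice. The Aim2-/- values were 45.7, 44.7 and 49.0 CPM at 0 h, then 62.8, 72.8 and 85.3 at 3 h, then 90.3, 113 and 114 at 6 h, then 258, 346 and 304 at 24 h. Its rise in WT, 1.25 ± 0.13, 1.85 ± 0.13 and 3.34 ± 0.14, was already past 1 at 3 h. Mthfd1l, the mitochondrial ligase that releases formate, waited until 6 h. It was 47.1, 45.9 and 53.9 CPM at 0 h, then 60.6, 58.2 and 50.9 at 3 h, then 137, 131 and 128 at 6 h, then 262, 315 and 252 at 24 h in WT mice. In Aim2-/- mice it was 49.2, 51.5 and 48.3 CPM at 0 h, then 56.2, 58.8 and 60.2 at 3 h, then 90.4, 116 and 107 at 6 h, then 169, 264 and 207 at 24 h. The 3 h group overlapped the unstimulated one in WT, and the 6 h groups were apart from it in both genotypes. Its change in WT was 0.21 ± 0.13 at 3 h (adjusted p = 0.235), 1.43 ± 0.13 at 6 h and 2.497 ± 0.13 at 24 h.

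**Figure D2:**
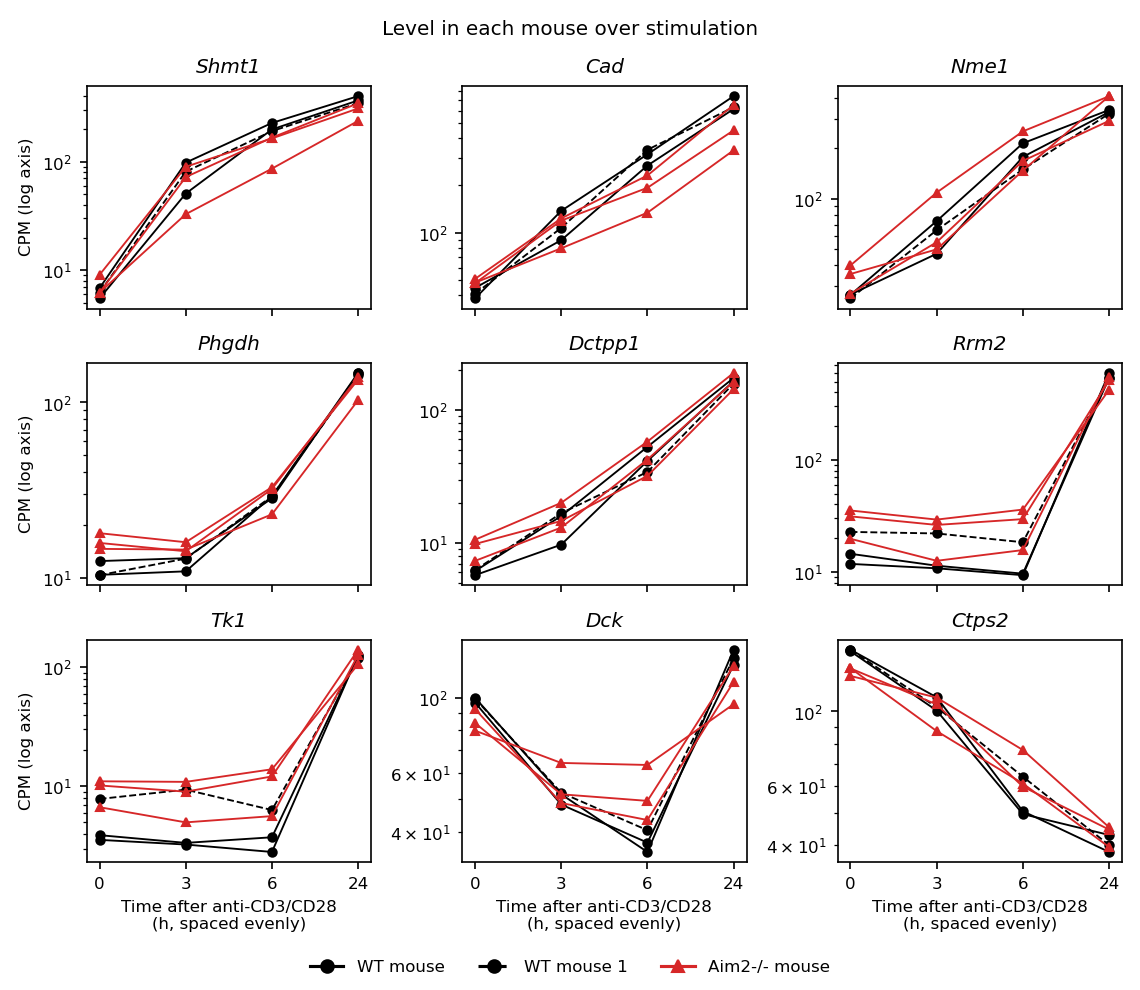
CPM (log axis) of 9 of the genes in each mouse at 0, 3, 6 and 24 h of stimulation, spaced evenly; black circles are WT mice, with the mouse labelled WT 1 dashed, and red triangles are Aim2-/- mice. Shmt1, Cad, Nme1 and Dctpp1 climb from 3 h, Rrm2 and Tk1 stay low through 6 h, Dck dips and returns, and Ctps2 falls throughout.

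The 2 PRPP synthetases, which supply the activated ribose, had both risen at 6 h and 24 h in each genotype, with only Prps1 called at 3 h. Prps1 stood in WT at 83.9, 79.2 and 79.5 CPM at 0 h, then 82.8, 108 and 130.2 at 3 h, then 136, 143 and 152 at 6 h, then 158, 154 and 137 at 24 h. Its Aim2-/- values were 75.3, 81.4 and 87.8 CPM at 0 h, then 98.6, 116 and 115 at 3 h, then 114, 154 and 127 at 6 h, then 125, 145 and 116 at 24 h. Its change in WT was 0.40 ± 0.13, 0.83 ± 0.13 and 0.89 ± 0.13, and the change from 6 h to 24 h was 0.06 ± 0.13 (adjusted p = 0.707). The 3 h call in WT was lost without the mouse labelled WT 4 (0.20, adjusted p = 0.415) and without WT 3 (0.37, adjusted p = 0.194). The 3 h change of Prps1 in Aim2-/- cells was 0.43 ± 0.13, a call lost without Aim2-/- 2 (0.39, adjusted p = 0.075) or Aim2-/- 4 (0.45, adjusted p = 0.0763). Prps2 held 40.0, 34.5 and 36.9 CPM at 0 h, then 31.8, 37.8 and 40.2 at 3 h, then 61.2, 57.8 and 54.7 at 6 h, then 120.4, 144 and 123 at 24 h in WT mice. Its Aim2-/- values were 31.1, 33.7 and 36.5 CPM at 0 h, then 34.4, 38.9 and 32.5 at 3 h, then 44.5, 52.7 and 50.8 at 6 h, then 94.8, 111 and 107 at 24 h. The 3 h values overlapped the resting ones in both genotypes. It changed by -0.02 ± 0.10 at 3 h (adjusted p = 0.912) and rose by 0.64 ± 0.10 at 6 h and 1.80 ± 0.11 at 24 h.

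All 6 genes of the route to IMP, the first finished purine nucleotide, had risen at 6 h and 24 h in both genotypes, and 5 of the 6 at 3 h. Pfas, which acts in the middle of the route, rose most. WT mice had 23.5, 27.0 and 25.8 CPM at 0 h, then 83.7, 99.1 and 64.4 at 3 h, then 164, 176 and 147 at 6 h, then 384, 385 and 372 at 24 h. Aim2-/- mice had 29.5, 26.4 and 25.9 CPM at 0 h, then 58.6, 82.9 and 103 at 3 h, then 96.0, 124 and 125 at 6 h, then 269, 381 and 311 at 24 h. The unstimulated groups lay below all others. The change in WT was 1.69 ± 0.18, 2.67 ± 0.18 and 3.90 ± 0.19 (14.9-fold at 24 h). Gart, which carries several steps of the route, rose by 0.78 ± 0.17, 1.96 ± 0.17 and 3.18 ± 0.18 in WT. Ppat, the amidotransferase of the first step, rose by 0.74 ± 0.15, 1.65 ± 0.16 and 2.73 ± 0.16, from 39.1 to 40.5 CPM at 0 h to 249 to 285 CPM at 24 h.

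Its neighbour Paics, which joins carbon dioxide and aspartate to the ring, was not called at 3 h. It changed by 0.08 ± 0.10 at 3 h (adjusted p = 0.612) and rose by 0.68 ± 0.10 at 6 h and 2.27 ± 0.11 at 24 h, from 96.2 to 98.0 CPM at 0 h to 446 to 506 CPM at 24 h. Reads from the shared 5' ends of Paics and Ppat cannot be assigned without the strand. Ppat had a mean of 2316 counts per library and Paics 4000.3. Adsl cleaves fumarate from intermediates here and in the AMP branch. It stood in WT at 61.9, 69.3 and 78.0 CPM at 0 h, then 117, 133 and 106 at 3 h, then 168, 164 and 154 at 6 h, then 308, 359 and 341 at 24 h. Aim2-/- libraries had 59.4, 71.4 and 63.0 CPM at 0 h, then 90.5, 117 and 107 at 3 h, then 87.4, 138 and 115 at 6 h, then 179.8, 319 and 242 at 24 h. The mouse labelled Aim2-/- 1 had the lowest value at each stimulated time. It rose by 0.77 ± 0.17, 1.22 ± 0.17 and 2.27 ± 0.18 in WT, with the 3 h call lost without WT 3 (0.65, adjusted p = 0.0627). Atic, which closes the ring, rose by 0.35 ± 0.11, 1.18 ± 0.11 and 2.61 ± 0.12, and its 3 h call was lost without WT 1 (0.33, adjusted p = 0.143), WT 3 (0.26, adjusted p = 0.283) or WT 4 (0.40, adjusted p = 0.0823). Its 3 h call in Aim2-/- cells (0.34 ± 0.11) was lost without each mouse but Aim2-/- 1, for instance without Aim2-/- 4 (0.27, adjusted p = 0.178).

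The branch from IMP to AMP and GMP responded late. None of its 4 genes was called at 3 h in either genotype by edgeR, where 0 of them had an unadjusted p under 0.05 in WT. All 4 rose at 6 h in WT and all 4 at 24 h in both genotypes. Gmps, the GMP synthetase, had the largest 24 h change. It stood at 65.5, 48.5 and 54.2 CPM at 0 h, then 61.4, 62.7 and 62.8 at 3 h, then 103, 89.4 and 89.97 at 6 h, then 184, 224 and 204 at 24 h in WT mice. Aim2-/- mice had 47.4, 52.7 and 56.0 CPM at 0 h, then 51.7, 62.6 and 56.7 at 3 h, then 57.8, 75.7 and 64.1 at 6 h, then 120.3, 177 and 138 at 24 h. The change in WT was 0.15 ± 0.13 (adjusted p = 0.425), 0.75 ± 0.13 and 1.86 ± 0.14.

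IMP dehydrogenase, the step towards GMP, is encoded by Impdh1 and Impdh2. Impdh1 held 108, 165 and 150.02 CPM at 0 h, then 143, 163 and 115 at 3 h, then 192, 245 and 216 at 6 h, then 192, 209 and 199 at 24 h in WT mice. In Aim2-/- mice it was 113, 140.2 and 144 CPM at 0 h, then 95.9, 134 and 159 at 3 h, then 132, 203 and 187 at 6 h, then 162, 200.1 and 188 at 24 h. It rose in WT by 0.63 ± 0.19 at 6 h and 0.50 ± 0.19 at 24 h, and it lost both calls without the mouse labelled WT 1 (6 h 0.55, adjusted p = 0.0562, and 24 h 0.37, adjusted p = 0.155) and the 24 h call without WT 3 (0.54, adjusted p = 0.0548) or WT 4 (0.51, adjusted p = 0.0819). Its change in Aim2-/- cells was 0.40 ± 0.19 at 6 h (adjusted p = 0.0834), and with mouse as a block it was called (0.38 ± 0.11, adjusted p = 0.00532). Its 24 h change there, 0.47 ± 0.19, was not called without Aim2-/- 2 (0.45, adjusted p = 0.111), Aim2-/- 4 (0.52, adjusted p = 0.0638) or WT 4 (0.45, adjusted p = 0.0604), or with RLE size factors (0.41, adjusted p = 0.0574).

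Impdh2 was 27.0, 26.2 and 29.4 CPM at 0 h, then 29.1, 32.2 and 27.5 at 3 h, then 39.6, 41.7 and 40.1 at 6 h, then 83.5, 94.7 and 86.4 at 24 h in WT mice. The Aim2-/- values were 26.9, 28.9 and 27.8 CPM at 0 h, then 21.99, 30.2 and 26.3 at 3 h, then 19.0, 34.2 and 27.7 at 6 h, then 57.4, 89.1 and 70.1 at 24 h. The 6 h group of Aim2-/- mice straddled its resting range, while that of WT mice lay above it. The rise in WT was 0.56 ± 0.16 at 6 h and 1.68 ± 0.17 at 24 h, where the 6 h call was lost without WT 1 (0.56, adjusted p = 0.0512), WT 3 (0.46, adjusted p = 0.121) or WT 4 (0.59, adjusted p = 0.0523). Aim2-/- cells had a 6 h change of -0.05 ± 0.16 (adjusted p = 0.831) and rose by 1.37 ± 0.17 at 24 h. Impdh2 overlaps Ndufaf3 on the other strand (338 counts on average against 866). Adss, which starts the AMP arm, had 200.1, 172 and 188 CPM at 0 h, then 183, 202 and 216 at 3 h, then 236, 273 and 254 at 6 h, then 369.9, 379 and 344 at 24 h in WT mice. Aim2-/- mice had 162, 155 and 173 CPM at 0 h, then 160.5, 176 and 185 at 3 h, then 166, 222 and 204 at 6 h, then 262, 307 and 272 at 24 h. It rose by 0.45 ± 0.10 and 0.96 ± 0.10 in WT at 6 h and 24 h, with the 6 h call lost without WT 3 (0.30, adjusted p = 0.0984). In Aim2-/- cells Gmps (0.34 ± 0.13) and Adss (0.27 ± 0.10) were called at 6 h, and both calls were lost with RLE size factors (0.28, adjusted p = 0.102 and 0.21, adjusted p = 0.1), with DESeq2, without the filter on low counts, and without Aim2-/- 2 (0.24, adjusted p = 0.166 and 0.14, adjusted p = 0.336), Aim2-/- 4, WT 3 or WT 4.

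Of the 5 pyrimidine synthesis genes, 4 rose and 1 fell. Cad (ENSMUSG00000013629, chr5:31054780-31078479, plus strand), which carries the opening reactions of the route in a single protein, rose most. In WT mice it stood at 40.8, 38.2 and 44.5 CPM at 0 h, then 107, 138 and 89.7 at 3 h, then 337, 316 and 268 at 6 h, then 630.0, 741 and 613 at 24 h. Its Aim2-/- values were 48.0, 50.8 and 47.7 CPM at 0 h, then 79.6, 123 and 119 at 3 h, then 134, 231 and 193 at 6 h, then 335, 652 and 449 at 24 h. All libraries from 3 h on lay above all unstimulated ones, and Aim2-/- 1 was the lowest at each stimulated time. The change in WT was 1.44 ± 0.22, 2.90 ± 0.23 and 4.01 ± 0.24 (16.1-fold at 24 h), and in Aim2-/- cells it was 1.14 ± 0.22, 1.93 ± 0.22 and 3.29 ± 0.24.

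Umps, which makes UMP, stood in WT at 37.6, 44.3 and 43.6 CPM at 0 h, then 87.8, 104 and 67.6 at 3 h, then 150.04, 169 and 153 at 6 h, then 347, 384 and 348 at 24 h. Its Aim2-/- values were 52.0, 48.1 and 51.6 CPM at 0 h, then 66.2, 87.2 and 101 at 3 h, then 93.2, 144 and 130.0 at 6 h, then 249.7, 329.5 and 321 at 24 h. All stimulated libraries were above the unstimulated ones. It rose by 1.05 ± 0.17, 1.91 ± 0.17 and 3.10 ± 0.18 in WT. Dhodh, the mitochondrial dehydrogenase of the route, changed in WT by 0.44 ± 0.18 at 3 h (adjusted p = 0.0628) and rose by 1.10 ± 0.18 and 1.97 ± 0.18 at 6 h and 24 h. The 3 h change of Dhodh was called with mouse as a block (0.44 ± 0.09, adjusted p = 0.000463).

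The 2 CTP synthetases moved in opposite directions. Ctps was 24.9, 24.6 and 25.1 CPM at 0 h, then 78.0, 96.4 and 59.5 at 3 h, then 132, 152 and 135 at 6 h, then 246, 277 and 245 at 24 h in WT mice. In Aim2-/- mice it was 26.5, 23.9 and 31.0 CPM at 0 h, then 52.4, 64.7 and 81.3 at 3 h, then 69.0, 108 and 98.2 at 6 h, then 175, 243 and 195 at 24 h. It rose by 1.65 ± 0.19, 2.49 ± 0.19 and 3.36 ± 0.19 in WT. Ctps2 (ENSMUSG00000031360, chrX:162901238-163032508, plus strand) fell at each of the 3 times in both genotypes. WT mice had 153, 151 and 153 CPM at 0 h, then 103, 101 and 110.2 at 3 h, then 63.9, 49.5 and 50.5 at 6 h, then 40.0, 42.9 and 38.2 at 24 h. In Aim2-/- mice the values were 128, 134 and 135 CPM at 0 h, then 110.0, 105 and 87.4 at 3 h, then 76.8, 59.7 and 61.0 at 6 h, then 45.2, 44.5 and 39.5 at 24 h. Its change was -0.54 ± 0.11, -1.48 ± 0.11 and -1.91 ± 0.11 in WT and -0.39 ± 0.11, -1.01 ± 0.11 and -1.62 ± 0.11 in Aim2-/- cells. The Aim2-/- call at 3 h was lost without Aim2-/- 4 (-0.29, adjusted p = 0.116) and with library totals in place of TMM scaling (-0.27, adjusted p = 0.0831). Per kilobase of transcript, Ctps2 was at 45.4 ± 0.271 CPM (SD, n = 3) and Ctps at 9.20 ± 0.092 in WT cells at 0 h, and at 24 h they were at 12.0 ± 0.71 and 94.7 ± 6.53, so their order turned.

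The deoxynucleotide genes split in time from the rest. Rrm1, Rrm2, Tyms and Dut, together with the salvage kinase Tk1, were not called at 3 h or 6 h in WT and rose by 3.30 to 5.10 at 24 h. Rrm1 and Rrm2 are the large and the small subunit of ribonucleotide reductase in dividing cells. Rrm2 (ENSMUSG00000020649, chr12:24708241-24714146, plus strand) stood in WT at 22.7, 11.8 and 14.5 CPM at 0 h, then 22.02, 10.8 and 11.3 at 3 h, then 18.4, 9.34 and 9.63 at 6 h, then 543, 598 and 541 at 24 h. In Aim2-/- mice it was 35.3, 19.7 and 31.3 CPM at 0 h, then 29.3, 12.6 and 26.3 at 3 h, then 35.995, 15.7 and 29.6 at 6 h, then 422, 551 and 513 at 24 h. The mouse labelled WT 1 was the highest WT mouse and Aim2-/- 2 the lowest Aim2-/- mouse through 6 h. The change of Rrm2 in WT was -0.15 ± 0.36 at 3 h (adjusted p = 0.799), -0.39 ± 0.37 at 6 h (adjusted p = 0.401) and 5.10 ± 0.40 at 24 h (34.3-fold). Aim2-/- cells had -0.34 ± 0.35, -0.09 ± 0.35 and 4.10 ± 0.38, of which the last was called.

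Rrm1 changed by -0.20 ± 0.19, -0.12 ± 0.19 and 3.30 ± 0.20 in WT, from 60.3 to 87.4 CPM at 0 h to 682 to 824 CPM at 24 h. Tyms, the thymidylate synthase that uses folate to make dTMP, held 10.9, 6.46 and 5.83 CPM at 0 h, then 12.1, 7.13 and 7.57 at 3 h, then 11.2, 6.23 and 6.86 at 6 h, then 174, 200.4 and 178 at 24 h in WT mice. Aim2-/- libraries held 15.9, 9.69 and 14.1 CPM at 0 h, then 13.5, 8.11 and 13.6 at 3 h, then 17.4, 12.0 and 15.8 at 6 h, then 134, 176 and 172 at 24 h. Before 24 h the groups of each genotype overlapped between times. Its change was 0.21 ± 0.28, 0.07 ± 0.28 and 4.57 ± 0.29 in WT. Dut, which removes dUTP, was 31.6, 30.1 and 24.8 CPM at 0 h, then 30.0, 24.7 and 20.7 at 3 h, then 36.1, 37.9 and 35.3 at 6 h, then 449, 480.0 and 448 at 24 h in WT mice. Its Aim2-/- values were 35.8, 31.3 and 44.1 CPM at 0 h, then 41.6, 27.0 and 43.1 at 3 h, then 62.2, 39.6 and 69.2 at 6 h, then 497, 453 and 552 at 24 h. It changed by -0.20 ± 0.19 and 0.34 ± 0.19 at 3 h and 6 h (adjusted p = 0.145 at 6 h) and rose by 3.99 ± 0.21 at 24 h in WT. Its 6 h change in WT was called with mouse as a block (0.34 ± 0.11, adjusted p = 0.00977). In Aim2-/- cells Dut rose by 0.62 ± 0.19 at 6 h, a call lost without Aim2-/- 1 (0.53, adjusted p = 0.0901), and by 3.76 ± 0.20 at 24 h.

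Dctpp1, a pyrophosphatase that breaks down dCTP and its modified forms, moved earlier. It rose in WT by 1.23 ± 0.24 at 3 h, 2.82 ± 0.24 at 6 h and 4.78 ± 0.25 at 24 h (27.4-fold), from 5.73 to 6.25 CPM at 0 h to 158 to 174 CPM at 24 h. Rrm2b, the small subunit that serves cells outside S phase, went the other way. It was 18.4, 17.4 and 18.8 CPM at 0 h, then 18.2, 17.3 and 20.5 at 3 h, then 15.8, 14.8 and 20.05 at 6 h, then 11.4, 10.7 and 12.3 at 24 h in WT mice. Aim2-/- mice had 13.1, 16.4 and 14.3 CPM at 0 h, then 14.4, 19.4 and 12.5 at 3 h, then 14.9, 17.4 and 11.2 at 6 h, then 11.0, 12.2 and 10.4 at 24 h. In WT it fell by 0.67 ± 0.17 at 24 h, and at 3 h and 6 h it changed by 0.03 ± 0.17 and -0.11 ± 0.17, neither called. In Aim2-/- cells its change at 24 h was -0.39 ± 0.17 (adjusted p = 0.0468), and this call was lost without each mouse but WT 4, at adjusted p of 0.055 without WT 3 to 0.0996 without Aim2-/- 4 (where the changes were -0.42 and -0.35), and with library totals, limma-voom or no filter (adjusted p of 0.0613 to 0.0619). With mouse as a block its change from 6 h to 24 h in Aim2-/- cells was called as well (-0.36 ± 0.11, adjusted p = 0.00924). Gm3362, which overlaps Rrm2b on the same strand, had a mean of 10.7 counts against 315.

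**Figure D3:**
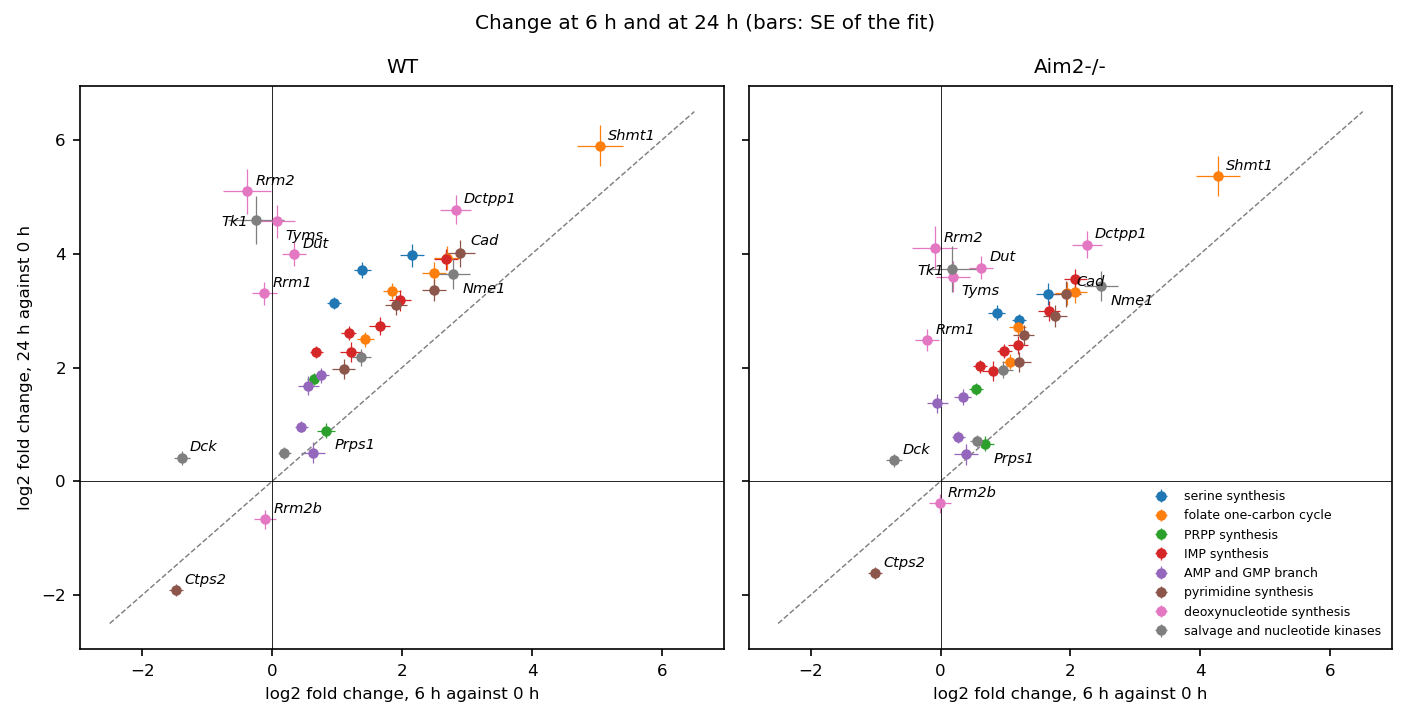
Log2 fold change at 6 h (horizontal) against that at 24 h (vertical) for the 36 genes in WT (left) and Aim2-/- cells (right), with bars for the SE of the fit and colours for roles; the dashed line marks equal change. Rrm1, Rrm2, Tyms, Dut and Tk1 lie high near a 6 h change of 0, while Shmt1, Cad, Nme1 and Dctpp1 had moved at both times.

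Among the salvage enzymes and kinases, Tk1 (ENSMUSG00000025574, chr11:117815526-117826092, minus strand), the cytosolic thymidine kinase of dividing cells, had the largest 24 h rise. It was 7.85, 3.56 and 3.90 CPM at 0 h, then 9.39, 3.26 and 3.36 at 3 h, then 6.34, 2.82 and 3.75 at 6 h, then 119.7, 126 and 124 at 24 h in WT mice. Its level in Aim2-/- mice was 11.0, 6.69 and 10.2 CPM at 0 h, then 10.9, 4.99 and 9.03 at 3 h, then 13.9, 5.63 and 12.1 at 6 h, then 105, 126 and 139.8 at 24 h. Its change in WT was 0.06 ± 0.42, -0.24 ± 0.43 and 4.59 ± 0.43, of which the last was called. Tk1 overlaps Afmid on the other strand (110.0 counts against 724). Dck (ENSMUSG00000029366, chr5:88764996-88783281, plus strand), the deoxycytidine kinase that salvages deoxynucleosides, fell before it rose. In WT mice it stood at 99.3, 99.9 and 96.6 CPM at 0 h, then 52.3, 51.7 and 48.2 at 3 h, then 40.5, 34.9 and 37.2 at 6 h, then 131, 138 and 125 at 24 h. The Aim2-/- values were 79.8, 84.1 and 92.4 CPM at 0 h, then 64.05, 51.7 and 48.7 at 3 h, then 63.2, 49.5 and 43.4 at 6 h, then 95.5, 124 and 111 at 24 h. It changed by -0.96 ± 0.12, -1.39 ± 0.12 and 0.41 ± 0.12 in WT, each called. In Aim2-/- mice the changes were -0.64 ± 0.12, -0.72 ± 0.12 and 0.37 ± 0.12, also called. The 24 h call of Dck was lost without WT 3 in WT (0.32, adjusted p = 0.0871) and without Aim2-/- 2 in Aim2-/- cells (0.26, adjusted p = 0.132).

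Uck2, the uridine and cytidine kinase, rose in WT by 0.54 ± 0.15, 1.37 ± 0.15 and 2.18 ± 0.15, with the 3 h call lost without WT 1 (0.50, adjusted p = 0.0786) or WT 3 (0.44, adjusted p = 0.117). Nme1, a nucleoside diphosphate kinase, rose by 1.23 ± 0.26, 2.78 ± 0.27 and 3.65 ± 0.27, from 25.4 to 26.8 CPM to 322 to 339 CPM at 24 h. Of its 3342 exon bases, 418 are also exons of Gm20390, an annotated read-through gene that shares 573 exon bases with Nme2 and had 0 counts in every library. How the counting treated such reads is not given in the sources used here, so the level of Nme1 is uncertain. Cmpk1, which phosphorylates CMP and UMP, changed little: in WT it fell by 0.32 ± 0.10 at 3 h, had a change of 0.19 ± 0.10 at 6 h (adjusted p = 0.142) and rose by 0.50 ± 0.10 at 24 h. The fall of Cmpk1 was not called without WT 1 (-0.26, adjusted p = 0.147), without WT 3 (-0.36, adjusted p = 0.0761), with library totals in place of TMM or with no filter.

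From 6 h to 24 h, 32 members rose further and 2 fell in WT, beside 29.6% and 28.0% of all genes. In Aim2-/- cells 31 rose and 1 fell, beside 27.4% and 27.0%. The largest later rises in WT were those of Rrm2 (5.49 ± 0.41), Tk1 (4.83 ± 0.43), Tyms (4.51 ± 0.29), Dut (3.66 ± 0.20) and Rrm1 (3.42 ± 0.20). The 6 genes of the summed proliferation list (Mki67, Top2a, Birc5, Cdk1, Ccnb1 and Mcm5) also rose late, with sums of 143 to 282 CPM at 0 h, 206 to 369 at 6 h and 2957 to 3483 at 24 h in WT. What part the share of dividing cells has in the late rises was not tested.

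Levels of different genes can be compared only per transcript length, and Nme1, Psph, Shmt1 and the other overlapping genes carry the doubts given above. The principal transcript of Nme1, and so its length, is doubtful as well, so Nme1 is left out of the rankings here. Per kilobase of the principal transcript, the unstimulated WT cells held most of Adss (67.5 ± 5.02 CPM per kb, SD, n = 3), Impdh1 (54.2 ± 11.4), Ctps2 (45.4 ± 0.271), Prps1 (41.1 ± 1.35) and Paics (39.2 ± 0.365). Tyms (2.44 ± 0.873) and Shmt1 (2.17 ± 0.236) lay at the bottom. Impdh1 differed from its neighbours Adss and Ctps2 by less than the sum of the SDs, so their order is not settled, nor is that of Tyms and Shmt1. At 24 h Shmt2 (358 ± 16.7 CPM per kb) was the highest, followed by Rrm2 (256 ± 14.7), Dctpp1 (245 ± 11.9) and Dut (235 ± 9.27), where neighbours among the last 3 differed by less than the sum of their SDs. Rrm2b (2.52 ± 0.167), Ctps2 (12.0 ± 0.71) and Cmpk1 (19.7 ± 0.861) were then the lowest. Of the resting top 3, Adss and Impdh1 stood at 132 ± 6.54 and 76.9 ± 3.38, and Ctps2 had moved next to last.

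Related enzymes responded unequally within the same mouse at 24 h. For 7 pairs the log2 change from 0 h to 24 h of a gene was subtracted from that of its relative in each of the 6 mice, so that library size cancels. Shmt2 minus Shmt1 was -2.13 ± 0.18 (SD, n = 6 mice; from -2.35 to -1.86), so the cytosolic form rose more. Mthfd2 minus Mthfd1 was -0.58 ± 0.22 (SD, n = 6 mice; from -0.87 to -0.30), and Mthfd1l minus Mthfd1 was -1.31 ± 0.22 (SD, n = 6 mice; from -1.62 to -1.02), again in favour of the cytosolic enzyme. Ctps minus Ctps2 was 4.89 ± 0.47 (SD, n = 6 mice; from 4.21 to 5.30) and Rrm2 minus Rrm2b was 5.16 ± 0.90 (SD, n = 6 mice; from 3.83 to 6.35), the widest gaps. Impdh2 minus Impdh1 was 1.01 ± 0.32 (SD, n = 6 mice; from 0.57 to 1.51) and Prps1 minus Prps2 was -0.94 ± 0.17 (SD, n = 6 mice; from -1.15 to -0.68). In every pair all 6 mice had the same sign. The exact two-sided sign-flip permutation test gave p = 0.03125 for each pair, adjusted over the 7 pairs 0.03125, which is the smallest p that 6 mice allow. The mice of both genotypes were pooled here, and Mthfd1 enters 2 pairs. Pair differences at 3 h and 6 h were not tested, and the order at 24 h need not hold there. At 6 h Prps1 had changed more than Prps2 in every mouse.

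**Figure D4:**
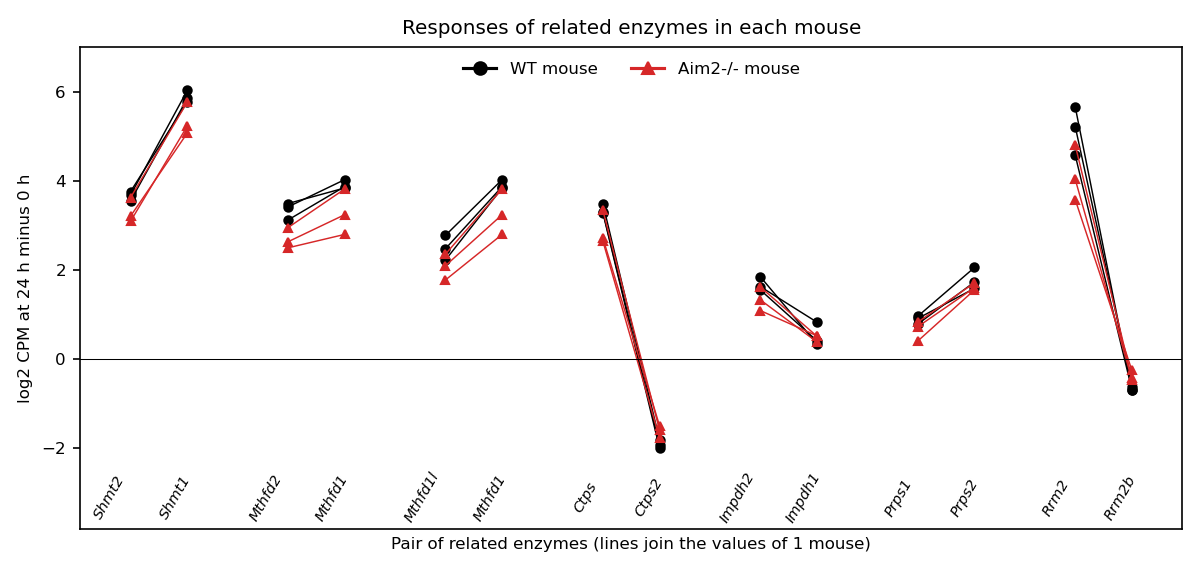
Log2 CPM at 24 h minus 0 h for the 2 genes of each of 7 pairs, with a line joining the values of 1 mouse; black circles are WT and red triangles Aim2-/- mice. The lines of a pair slope the same way in all 6 mice, steepest for Ctps with Ctps2 and Rrm2 with Rrm2b.

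Genes around the same routes, taken from 6 lists written from pathway knowledge, moved both ways. The genes named here are called ones with the largest 24 h changes in WT among those that reached 10 CPM in the higher group. Of 15 tested genes of folate handling, 8 rose and 2 fell at 24 h in WT (7 and 2 in Aim2-/- cells). The folate carrier Slc19a1 rose by 3.67 ± 0.26 and was already up by 3.39 ± 0.25 at 6 h. Gcsh, of the glycine cleavage system, rose by 3.41 ± 0.20.

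Of 4 serine transport genes, 3 rose and 1 fell in WT (2 and 1 in Aim2-/- cells). Sfxn1, which carries serine into mitochondria, rose by 3.03 ± 0.13, and its relative Sfxn3 changed by -2.22 ± 0.12, a fall. The neutral amino acid transporters Slc1a4 and Slc1a5 rose by 1.40 ± 0.35 and 1.16 ± 0.17. In the methionine cycle 8 of 10 tested genes rose and 1 fell in each genotype. Ahcy, which clears S-adenosylhomocysteine, rose by 2.40 ± 0.13, Mtap by 2.36 ± 0.21 and Mtrr by 1.32 ± 0.16, while Mat2b changed by -1.11 ± 0.08, a fall.

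Purine salvage and breakdown moved both ways, with 11 of 20 genes up and 4 down in WT (10 and 3 in Aim2-/- cells). Rises among the named genes were those of Ada (2.40 ± 0.14), Ampd2 (2.30 ± 0.12) and Aprt (2.05 ± 0.17), and falls those of Nt5e (-3.71 ± 0.35), the surface enzyme CD73, and Xdh (-0.77 ± 0.22). Of 10 pyrimidine salvage and breakdown genes, 3 rose and 3 fell in WT (4 and 4 in Aim2-/- cells). Dctd, which makes dUMP from dCMP and so feeds Tyms, had 1.20, 1.03 and 0.71 CPM at 0 h, then 65.7, 66.4 and 62.8 at 24 h and rose by 6.04 ± 0.21 (65.8-fold) in WT and 4.74 ± 0.19 in Aim2-/- cells. Of the others, Nt5m (1.999 ± 0.12) and Nt5c3b (0.83 ± 0.09) rose, and Tk2 (-1.14 ± 0.10) and Uckl1 (-1.01 ± 0.11) fell. Of 11 nucleotide kinases 10 rose and 0 fell in each genotype by edgeR, where all 11 had an unadjusted p under 0.05 in WT and Cmpk2, the gene outside the call, had a change of -0.84. Nme6 (3.22 ± 0.20), Nme4 (2.78 ± 0.23) and Dtymk (2.66 ± 0.13), the thymidylate kinase, were among those that rose. The same background of 36.6% of all genes up and 34.8% down in WT applies to these counts.

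Between genotypes few members were called at 0 h, 3 h and 24 h, and more at 6 h. No called member kept its call in every fit that left out a mouse. In unstimulated cells 1 of 36 members, Phgdh, was higher in Aim2-/- cells (0.54 ± 0.13, adjusted p = 0.0285) and 0 were lower, beside 3.24% of all genes higher and 1.99% lower. The 3 Aim2-/- values of Phgdh, 14.6, 15.8 and 17.96 CPM, lay above the WT values of 10.3, 12.4 and 10.4 CPM. Its call was lost without WT 1 (0.50, adjusted p = 0.084), WT 3 (0.60, adjusted p = 0.136), WT 4 (0.47, adjusted p = 0.173) or Aim2-/- 4 (0.46, adjusted p = 0.113). Without WT 1 the calls were Tk1 (1.32 ± 0.36, adjusted p = 0.0402) and Tyms (1.11 ± 0.24, adjusted p = 0.0148) instead, both higher, beside 4.27% of all genes higher and 1.51% lower. A fit with mouse as a random block called Mthfd2 beside Phgdh (0.45, adjusted p = 0.0497). Without Aim2-/- 2 edgeR called 6 members, all higher, beside 7.77% of all genes higher and 5.91% lower. In 11 of 36 members the 2 groups did not overlap at 0 h, beside 28.5% of all genes. By edgeR 7 members had an unadjusted p under 0.05. Shares of all genes under that unadjusted cut were not computed, here or below. DESeq2 called 3 members and limma-voom 0, beside 11% and 5.23% of all genes.

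At 3 h edgeR called 0 of 36 members, beside 0.294% of all genes in either direction. An unadjusted p under 0.05 was reached by 2 members. DESeq2, limma-voom and the fit without WT 1 each called 0, beside 2.13%, 0.411% and 2.71% of all genes. The groups were apart in 1 member, beside 15.1% of all genes. Without Aim2-/- 2 edgeR called 1, beside 7.31% of all genes. At 24 h edgeR again called 0 of 36, beside 0.666% of all genes. There 10 members had an unadjusted p under 0.05. DESeq2 called 2, limma-voom 0 and the fit without WT 1 called 0, beside 5.95%, 0.0326% and 1.05% of all genes. The median difference over the members at 24 h was -0.25, where that of all genes was 0.01, and the groups were apart in 12 members, beside 21.3% of all genes. Gmps and Adss were nearest to a call (-0.49 ± 0.13, adjusted p = 0.073, and -0.38 ± 0.10, adjusted p = 0.0692). Without Aim2-/- 2, 8 members were called by edgeR at 24 h, all lower in Aim2-/- cells, beside 9.28% of all genes lower and 8.0% higher, and the other fits that left out a mouse called 0.

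At 6 h, 6 members were higher and 6 lower in Aim2-/- cells, beside 8.78% of all genes higher and 7.01% lower. The higher ones were Psph and genes of deoxynucleotide synthesis and salvage, and the lower ones were purine and pyrimidine synthesis genes. Tk1 was 13.9, 5.63 and 12.1 CPM in Aim2-/- mice and 6.34, 2.82 and 3.75 CPM in WT mice, with WT 1 above Aim2-/- 2 (1.29 ± 0.41, adjusted p = 0.0406). Rrm2 was 35.995, 15.7 and 29.6 against 18.4, 9.34 and 9.63 CPM, with the same overlap (1.12 ± 0.36, adjusted p = 0.0421). Tyms was 17.4, 12.0 and 15.8 against 11.2, 6.23 and 6.86 CPM, without overlap (0.89 ± 0.27, adjusted p = 0.0338). In these 3 genes the mouse labelled WT 1 was the highest of the WT mice and Aim2-/- 2 the lowest of the Aim2-/- mice. The same held at 0 h and 3 h, so these gaps did not first appear at 6 h. At 0 h Tk1 was 11.0, 6.69 and 10.2 against 7.85, 3.56 and 3.90 CPM. Rrm2 was then 35.3, 19.7 and 31.3 against 22.7, 11.8 and 14.5 CPM, and Tyms 15.9, 9.69 and 14.1 against 10.9, 6.46 and 5.83 CPM. Each overlapped there, and none was called with all mice. Dut differed by 0.65 ± 0.19, Dck by 0.47 ± 0.12 and Psph by 0.33 ± 0.10, each without overlap of the groups.

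Cad was 134, 231 and 193 CPM in Aim2-/- mice and 337, 316 and 268 CPM in WT mice at 6 h (-0.72 ± 0.22, adjusted p = 0.0325). Ctps was 69.0, 108 and 98.2 against 132, 152 and 135 CPM (-0.61 ± 0.18). Impdh2 was 19.0, 34.2 and 27.7 against 39.6, 41.7 and 40.1 CPM (-0.59 ± 0.16). In each of these the 2 groups were apart and Aim2-/- 1 was the lowest library. Adsl (-0.51 ± 0.17), Gmps (-0.51 ± 0.13) and Adss (-0.37 ± 0.10) completed the lower calls, and the adjusted p of the 12 calls ran from 0.0185 for Gmps to 0.0444 for Adsl. Over the 36 members 19 had groups that did not overlap, beside 35.6% of all genes, and the median difference was -0.22, where that of all genes was 0.05. With RLE in place of TMM scaling the split was 5 higher and 8 lower.

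None of the 12 calls at 6 h held in every alternative setting run. Without WT 1, 7 members were called, 5 higher (Tk1, Tyms, Rrm2, Dck and Ctps2) and 2 lower (Adss and Gmps), beside 7.83% and 3.62% of all genes. There the difference was 1.68 ± 0.36, adjusted p = 0.0125 for Tk1, 1.51 ± 0.35, adjusted p = 0.017 for Rrm2 and 1.20 ± 0.24, adjusted p = 0.00934 for Tyms. Cad without WT 1 was -0.65, adjusted p = 0.103, and Dut was 0.64, adjusted p = 0.0671. The number of calls was 0 without WT 3, WT 4 or Aim2-/- 1, where 1.14%, 0.607% and 1.92% of all genes were called in either direction. It was 1 without Aim2-/- 4, beside 2.71% of all genes, and 17 without Aim2-/- 2, beside 25.7%. With mouse as a random block 6 members were higher and 10 lower, beside 11.4% and 9.04% of all genes. These were the 12 and in addition Pfas, Mthfd1, Gart and Ppat, which were lower (-0.50, adjusted p = 0.0347 for Pfas).

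**Figure D5:**
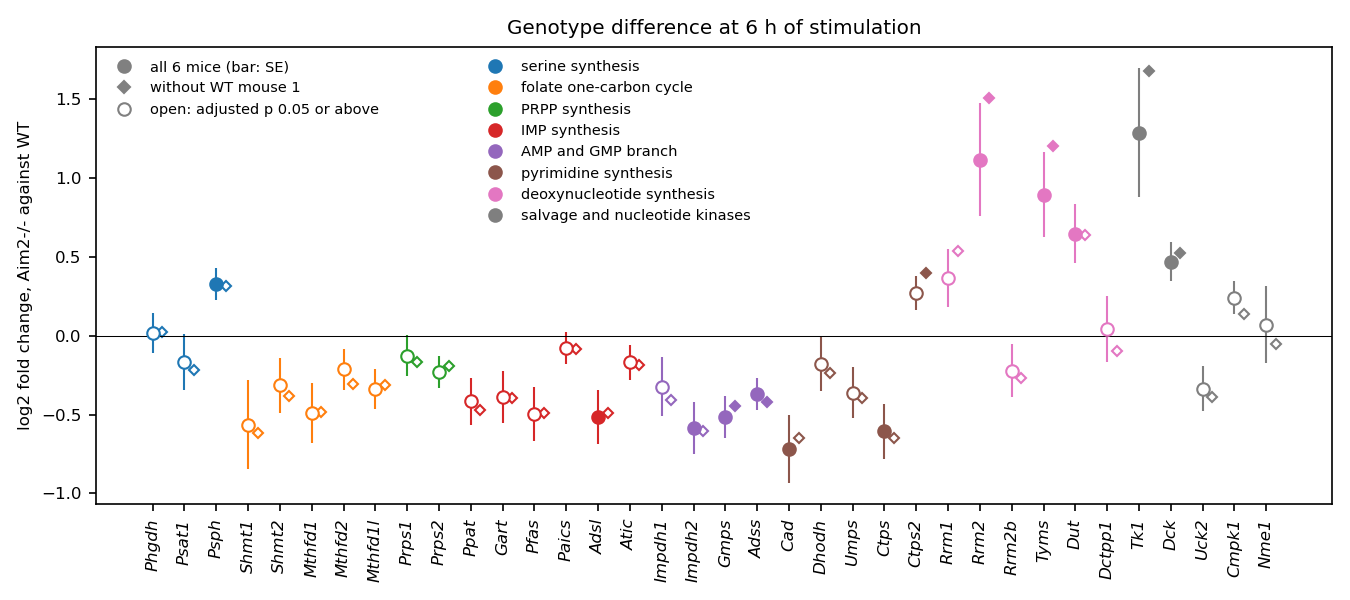
Log2 fold change of Aim2-/- against WT cells at 6 h for the 36 genes, coloured by role; circles use all 6 mice with bars for the SE, small diamonds leave out the mouse labelled WT 1, and filled symbols have an adjusted p under 0.05. Tk1, Rrm2 and Tyms sit highest in both fits, and Cad, Ctps and Impdh2 are filled only with all 6 mice.

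Markers of other cells moved with genotype, and their part in these differences was not tested. At 0 h the B cell markers (8 genes) summed to 15.6 to 44.0 CPM in Aim2-/- and 4.11 to 6.10 CPM in WT cells, the myeloid markers to 161 to 458 against 76.3 to 107 CPM, the neutrophil markers to 119 to 331 against 30.3 to 31.1 CPM, and the NK cell markers (5 genes) to 98.5 to 119 against 35.7 to 56.1 CPM. Of the NK cell list Eomes, which activated T cells also express, held 72.7 to 99.3 against 19.2 to 45.4 CPM, and the other 4 genes summed to 13.0 to 25.8 against 10.7 to 17.3 CPM, which overlap. The erythroid markers (8 genes) summed to 30.3 to 362 against 15.4 to 72.0 CPM at 0 h and 45.2 to 554 against 24.3 to 74.9 CPM at 6 h. No marker was at 0 in all libraries of a group, apart from 1 neutrophil marker in WT cells at 24 h. The CD8 markers Cd8a and Cd8b1 summed to 8.12 to 10.9 against 9.76 to 11.4 CPM at 0 h. At 6 h Aim2-/- 1, the lowest library for Cad, Ctps and Impdh2, had the most B cell, myeloid, neutrophil and erythroid markers. In label order the Aim2-/- sums were 47.9, 13.9 and 14.8 CPM (B cell) and 319, 128 and 168 CPM (myeloid). They were 205, 54.1 and 62.8 CPM (neutrophil) and 554, 45.2 and 292 CPM (erythroid). The NK cell sums went the other way (71.5, 89.2 and 76.1 CPM). At 6 h edgeR called 4 of 7 tested B cell markers, 2 of 8 myeloid, 3 of 8 neutrophil, 0 of 8 erythroid and 0 of 5 NK cell markers as higher in Aim2-/- cells, although all 8 erythroid markers and 1 NK cell marker had an unadjusted p under 0.05. Without WT 1 the calls were 3 B cell, 0 myeloid, 3 neutrophil, 1 erythroid and 1 NK cell marker, and without WT 3 or WT 4 they were 0 in each of these lists. The proliferation list summed at 6 h to 566, 293 and 468 CPM in the Aim2-/- mice and 369, 206 and 230.2 CPM in the WT mice, and 2 of its 6 genes were higher (5 without WT 1). Tk1 and Rrm2 had the same order over the 6 mice, with WT 1 above Aim2-/- 2.

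Whether the response to stimulation itself differed between genotypes was tested as an interaction. By edgeR 0 of 36 members were called at 3 h, 6 h or 24 h, beside 0.0%, 0.0261% and 0.0% of all genes. An unadjusted p under 0.05 was reached by 1, 13 and 9 members. DESeq2 called 0, 2 and 1, beside 0% and 2.8% of all genes at 3 h and 6 h. Its share at 24 h is not given here, so that count stands without a background. With mouse as a block, which uses that each mouse gave all 4 libraries, 0 members were called at 3 h, 9 at 6 h and 4 at 24 h, beside 0.0587%, 4.68% and 2.77% of all genes. At 6 h the rise from 0 h was smaller in Aim2-/- cells for Cad (-1.002 ± 0.20, adjusted p = 0.0112), Mthfd1, Ctps, Mthfd2, Umps, Impdh2 and Phgdh. The fall was smaller in Aim2-/- cells for Dck (0.67 ± 0.17, adjusted p = 0.0277) and Ctps2. At 24 h the rise was smaller for Phgdh (-0.76 ± 0.13, adjusted p = 0.00833), Mthfd2, Cad and Rrm1. The unblocked fit takes the same contrast of the same libraries, so a shared direction is no separate support. In it the interaction was -0.97 ± 0.31 for Cad and 0.68 ± 0.17 for Dck at 6 h (adjusted p = 0.176 and 0.0873). It was -0.75 ± 0.18 for Phgdh at 24 h (adjusted p = 0.115). The unblocked fit without WT 1 called 0 members at each time. The blocked fit without WT 1, added after the data were seen, called 1 member at 3 h (Mthfd2), 5 at 6 h (Mthfd2, Cad, Gmps, Ctps2 and Impdh2) and 8 at 24 h (Mthfd2, Rrm1, Rrm2, Tk1, Tyms, Psat1, Gmps and Phgdh), beside 0.198%, 3.49% and 4.22% of all genes. Without that mouse the blocked interaction was -0.92 ± 0.23, adjusted p = 0.0344 for Cad and 0.72 ± 0.20, adjusted p = 0.0531 for Dck at 6 h, and -0.73 ± 0.15, adjusted p = 0.017 for Phgdh at 24 h. Mthfd2 was called with and without it at 6 h (-0.66 ± 0.14, adjusted p = 0.0127, and -0.83 ± 0.14, adjusted p = 0.00593 without WT 1). An interaction also takes in the values at 0 h. There Mthfd2 stood at 45.7, 44.7 and 49.0 CPM in Aim2-/- mice and at 37.4, 34.8 and 30.4 CPM in WT mice.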

How the data were processed

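Splenic CD4+ T cells of 3 WT and 3 Aim2-/- mice at 4 times gave 24 stranded messenger RNA libraries. The authors deposited raw counts per gene, made with STAR on GRCm38 (version and strand setting not given in the sources used here). The submitters' processing notes also name DESeq2 and edgeR. Counts were tested with the quasi-likelihood F test of edgeR 4.0.16 in R 4.3.3, which is two-sided, over all 24 libraries with 1 mean per group, TMM scaling, filterByExpr with a minimum count of 10, and Benjamini-Hochberg adjustment over 15325 genes. The SE of a log2 change is its size divided by the root of F. The test was tested on simulated counts. Differences between genes of a pair were tested by an exact sign-flip permutation test over mice.

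The members and gene lists were chosen with earlier results of these data known. All 36 are named with their change. Values in every library are given for the largest 24 h change of each role, the members that fell, those of the pairs and those called between genotypes. Genes of other lists are named by the size of their 24 h change. Some genes picked this way are not reported here.

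Mice carry the same number at all times, so libraries of 1 number within a genotype come from the same animal. Deviations from group means correlated at 0.139 to 0.567 for the 36 same-mouse pairs of libraries and at -0.432 to 0.0742 for the 72 others. Mouse was therefore used as a block in an alternative fit. Other alternatives were RLE size factors, library totals, DESeq2 1.42.0, limma-voom (limma 3.58.1), no filter, and leaving out each mouse. Added after the data were seen were the blocked fit without WT 1 and the alternatives for the 6 other lists and the markers. Gene positions come from GENCODE vM21 (GRCm38) and promoter windows from RefSeq (GRCm38.p6).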

Additional observations from a re-analysis of the deposited data

Results flagged for a closer look

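A pair of members moved in opposite directions at 3 h in all mice of the 2 genotypes. The search took in 36 members at 3 h, 6 h and 24 h. How many such splits arise by chance, or among all genes, was not computed. Phgdh changed from 0 h by a mean of 0.15 on the log2 scale in the 3 WT mice, all positive, and by -0.1141 in the 3 Aim2-/- mice, all negative. Tyms changed by 0.22 in WT and by -0.179 in Aim2-/- mice, with the same separation. The interaction of edgeR gave an adjusted p of 1 for both.

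With mouse as a block the change from 0 h differed between genotypes in 9 members at 6 h. By edgeR's quasi-likelihood test it was smaller in Aim2-/- cells for Cad (-1.002 ± 0.20, adjusted p = 0.0112), Mthfd1 (-0.77 ± 0.21, adjusted p = 0.0436), Ctps (-0.75 ± 0.19, adjusted p = 0.0287), Mthfd2 (-0.66 ± 0.14, adjusted p = 0.0127), Umps (-0.66 ± 0.17, adjusted p = 0.0286), Impdh2 (-0.64 ± 0.14, adjusted p = 0.0182) and Phgdh (-0.54 ± 0.14, adjusted p = 0.0328). It was higher, that is a smaller fall, for Dck (0.67 ± 0.17, adjusted p = 0.0277) and Ctps2 (0.47 ± 0.13, adjusted p = 0.0478). At 24 h it was smaller for Rrm1 (-0.83 ± 0.22, adjusted p = 0.0493), Phgdh (-0.76 ± 0.13, adjusted p = 0.00833), Cad (-0.76 ± 0.19, adjusted p = 0.0388) and Mthfd2 (-0.64 ± 0.14, adjusted p = 0.0165). Without the mouse labelled WT 1, 4 of these 9 (Mthfd2, Cad, Ctps2 and Impdh2) and 3 of these 4 (Mthfd2, Rrm1 and Phgdh) were called. The values for Phgdh include its difference between genotypes at 0 h (0.54). Other 0 h groups were apart too, as in 28.5% of all genes. Mthfd2, Mthfd1, Cad, Umps and Rrm1 then lay above WT in Aim2-/- mice, and Ctps2 and Dck below. The 0 h groups of Ctps and Impdh2 overlapped. What part of each interaction comes from the 0 h values was not tested. Groups of 3 libraries are too small for a search for single outlying samples.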

How the results depend on the processing

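Of 3012 checks of called members under the alternatives, 2872 (95.4%) kept the direction and the call, 140 kept the direction and lost the call, and 0 turned. These checks pool stimulation and genotype calls, and most are of stimulation calls. Of the 36 calls in WT at 24 h against 0 h, 34 held in every alternative. Between genotypes 0 of 1 call at 0 h and 0 of 12 calls at 6 h did. The counts of members called at 6 h and 24 h against 0 h and from 6 h to 24 h stayed within 1.5 times in every alternative, as did WT at 3 h. In Aim2-/- cells at 3 h they ran from 11 (without Aim2-/- 4) to 21 as mice were left out. Using mouse as a replicate block moved no count of the stimulation comparisons past 1.5 times.

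Between genotypes at 0 h the calls were 2 with library totals, 3 with DESeq2, 0 with limma-voom, 6 with no filter, 2 with the random replicate block and 0 to 6 as mice were left out. In that order the fits with all mice called 4.42%, 11%, 5.23%, 4.78% and 8.25% of all genes. At 3 h they were 1 with no filter (2.47% of all genes) and 0 to 1 without single mice. At 6 h they were 19 with no filter (9.38% of all genes) and 0 to 17 without single mice. At 24 h they were 2 with DESeq2 (5.95% of all genes), 5 with no filter (3.07%) and 0 to 8 without single mice. The interaction calls at 6 h were 2 with DESeq2, 4 with no filter and 9 with the replicate block, beside 2.8%, 0.469% and 4.68% of all genes. At 24 h they were 1, 3 and 4, the last beside 2.77% of all genes, and 0 to 1 without single mice. Shares of all genes in the other fits at 24 h are not given here, so those counts stand without a background. With the replicate block and without WT 1 they were 1 at 3 h, 5 at 6 h and 8 at 24 h. The cause was not tested.

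Library totals in place of TMM moved the median of all genes by over 0.1, to 0.122 (0.0152 with TMM) for WT at 3 h, to 0.133 (0.017) for Aim2-/- at 3 h and to 0.198 (0.0776) for Aim2-/- at 6 h. The calls of all genes at 3 h were then 3357 up and 1815 down in WT, against 2476 and 2516, and 3455 and 1529 in Aim2-/- cells, against 2461 and 2237.

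Without single mice the pair differences ran from -2.185 to -2.089 for Shmt2 and Shmt1, -0.637 to -0.5238 for Mthfd2 and Mthfd1, -1.373 to -1.255 for Mthfd1l and Mthfd1, 4.813 to 5.03 for Ctps and Ctps2, 0.9116 to 1.1 for Impdh2 and Impdh1, -0.9878 to -0.8938 for Prps1 and Prps2, and 4.925 to 5.429 for Rrm2 and Rrm2b. With 5 mice the smallest p of the exact test is 0.0625, so its loss there says nothing about stability. The main edgeR fit set each change against 1 estimate of the spread shared by all 8 groups, with 3 mice a group. It treated libraries of the same mouse as independent. Libraries of 19715161 to 21627018 counts bound the counting error only.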

Other observations

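Some genes of the other lists differed between genotypes at 6 h by edgeR's quasi-likelihood test, where 8.78% of all genes were higher and 7.01% lower in Aim2-/- cells. Of 15 folate handling genes 4 were higher and 2 lower (3 and 1 without WT 1). The lower ones were the carriers Slc19a1 (-0.70 ± 0.23, adjusted p = 0.043, and -0.71 ± 0.27, adjusted p = 0.0959, without WT 1) and Slc25a32 (-0.50 ± 0.13, adjusted p = 0.0173, and -0.52 ± 0.15, adjusted p = 0.0387, without WT 1). Of 20 purine salvage and breakdown genes 5 were higher and 0 lower (4 and 0 without WT 1), of 10 methionine cycle genes 0 were higher and 3 lower (0 and 2), and of 10 pyrimidine salvage and breakdown genes 1 was higher and 0 lower (0 and 0). Of 4 serine transport genes and 11 nucleotide kinases edgeR called 0, where 0 and 2 had an unadjusted p under 0.05, DESeq2 and limma-voom each called 0 and 1, and edgeR without WT 1 called 0 and 1. Without WT 3 or WT 4 no gene of the 6 lists was called at 6 h by edgeR, and the calls over all genes went from 2421 to 179 and 95. Without Aim2-/- 1 or Aim2-/- 4 there was 1 call each in the 6 lists, in the methionine cycle, and 295 and 422 over all genes.

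In unstimulated cells Dctd was higher in Aim2-/- cells (1.21 ± 0.23, adjusted p = 0.00767, and 1.39 ± 0.27, adjusted p = 0.00833, without WT 1), at 2.47, 1.77 and 2.61 CPM against 1.20, 1.03 and 0.71 CPM in WT mice. By edgeR 0 of 10 pyrimidine salvage and breakdown genes were called at 0 h without WT 3 or WT 4, and by limma-voom 0 with all mice.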
